A study of Mus musculus with 16 samples.

Results

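The mCherry-negative epithelial cells of the distal colon were compared with those of section 8 of the small intestine, as 4 against 4 of the 16 bulk RNA libraries in the series. The mice carried RedMUC298trTg, a transgene that tags MUC2 with mCherry, and were 6 to 8 weeks old; no label names another allele or agent, so both regions share the transgene. DC other cells are the 4 distal colon libraries, named colonocytes in the labels, and Si8 other cells are the 4 libraries of section 8, named enterocytes. Both are what remained alive after the mCherry-positive goblet cells were taken off, so each is a mixture of every other epithelial type and of any leukocyte within the epithelium. The 8 goblet libraries of the same regions, 4 DC and 4 Si8, were used for the estimate of spread and for the comparison of sorts. Genes were joined by symbol, 37 mitochondrially encoded genes were left out by rule, and 15962 of 46882 genes had enough counts to be tested. Levels are given in CPM, counts scaled to a common library total, which are not scaled by gene length, so levels are compared between samples and never between genes.

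The distal small intestine takes back bile acids and cobalamin through carriers that few other epithelia hold, and its enterocytes still digest sugar and peptide at the brush border and pack fat into lipoproteins. The distal colon instead recovers sodium and water against a gradient, burns short-chain fatty acids from bacterial fermentation, and lies under a far denser microbial load. The small intestine also has Paneth cells, which release defensins, and more lymphocytes within its epithelium. Position along the gut is kept in epithelial cells partly by homeobox genes of the Hox clusters and by factors such as GATA4 and GATA5 in the small intestine.

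Total counts were 14887936 to 17695491 in DC other cells and 30842725 to 41080052 in Si8 other cells, so a gene that is silent in DC is bounded less tightly than one that is silent in Si8. The first principal component of the 1000 most variable genes held 98% of the variance over the 8 libraries and separated the regions. Muc2, the goblet mucin that the sort removes, had 38.2, 44.5, 33.6 and 49.6 CPM in DC other cells, against 53.6, 26.1, 91.2 and 50.6 CPM in Si8 other cells. These overlapped and did not pass the test (log2 fold change -0.42, SE 0.32, edgeR adjusted p = 0.26).

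The defining markers fitted both labels. A list of 8 colonocyte markers summed to 6597 to 7587 CPM in DC other cells and to 355 to 424 CPM in Si8 other cells. A list of 10 ileal enterocyte markers summed to 168 to 195 CPM in DC and to 17900.0 to 32630.0 CPM in Si8. The groups did not overlap in either sum. Summed goblet markers were low and overlapped, at 465 to 602 CPM in DC other cells and 324 to 799 CPM in Si8 other cells. Of the 8 goblet genes, 1 was called higher in DC and 3 lower. Agr2 had 221, 310, 214 and 163 CPM in DC, against 105, 34.0, 79.3 and 46.2 CPM in Si8. Fcgbp had 72.6, 87.1, 64.55 and 82.6 CPM in DC, against 316.5, 177, 409 and 273 CPM in Si8. Summed enteroendocrine markers overlapped as well, at 489 to 641 CPM in DC and 446 to 659 CPM in Si8. That sum covers opposite moves, since 5 of the 19 enteroendocrine genes were called higher in DC and 10 lower (median log2 fold change -0.69). Insl5, a hormone of colonic endocrine cells, had 30.04, 50.3, 37.5 and 42.4 CPM in DC other cells, against 0.289, 0.289, 0.263 and 0.332 CPM in Si8 other cells (log2 fold change 7.07, SE 0.25, edgeR adjusted p = 4e-15). Nts, neurotensin, had 0.0547, 0.365, 0 and 0.190 CPM in DC, against 50.5, 32.3, 47.3 and 63.4 CPM in Si8 (log2 fold change -8.26, SE 0.50, edgeR adjusted p = 3.8e-10); both hormones were chosen after their values had been seen.

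Markers of cells other than absorptive cells differed between the regions. Paneth markers (9 genes) summed to 0.547 to 1.16 CPM in DC, where 5 of the defensins had no count, and to 850.5 to 2263 CPM in Si8. Markers of intraepithelial lymphocytes (14 genes) summed to 7.48 to 9.08 CPM in DC and 279 to 427 CPM in Si8, and those of B and plasma cells (9 genes) to 2.56 to 10.4 CPM in DC and 190.5 to 474 CPM in Si8. Myeloid markers (7 genes) summed to 6.997 to 10.02 CPM in DC and 51.8 to 92.2 CPM in Si8. Most of the Si8 sum was Itgam, at 54.7, 70.65, 47.5 and 35.3 CPM, and 5 of 7 tested members were called lower. Cd68 had 1.86, 1.95, 3.09 and 2.34 CPM in DC, against 1.66, 2.26, 2.30 and 1.23 CPM in Si8. Mast cell markers (6 genes) summed to 0.759 to 1.75 CPM in DC and 28.03 to 192 CPM in Si8, mostly Mcpt1 and Mcpt2. Cpa3 and Fcer1a had no count in DC. Tpsb2 and Cma1 had at most 0.0663 and 0.365 CPM in any library, and 3 of 4 tested members were called lower. In each of these sums the DC libraries all lay below the Si8 libraries. Tuft cell markers were also lower in DC, at 43.6 to 81.3 CPM against 119 to 174 CPM in Si8. Not every list fell. M cell markers summed to 189 to 207 CPM in DC and 142 to 165 CPM in Si8. That sum was mostly Tnfrsf11a, and of 5 tested members 1 was called higher and 4 lower. Endothelial markers summed to 7.28 to 9.19 CPM in DC and 3.65 to 4.045 CPM in Si8. Deep crypt secretory markers overlapped, at 194 to 285 CPM in DC and 177 to 216 CPM in Si8. In bulk samples, fewer cells of a type and less RNA per cell cannot be told apart.

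**Figure D1:**
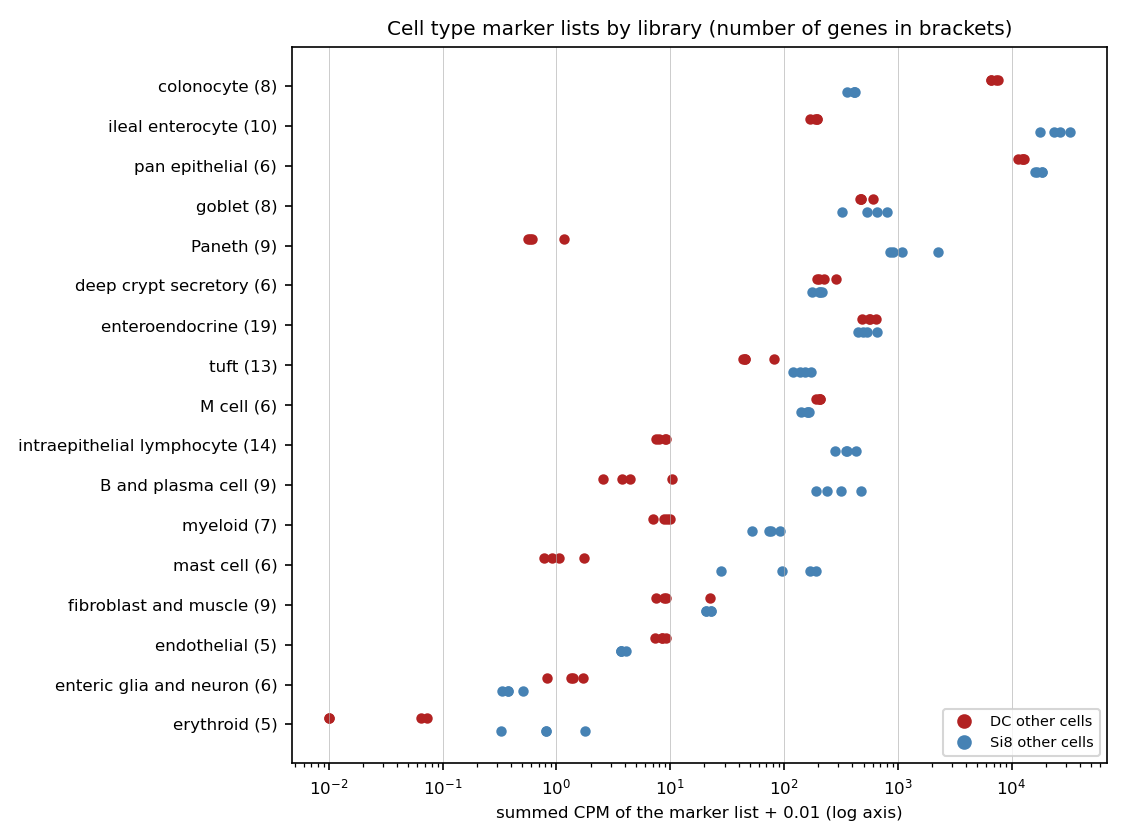
Summed CPM of each marker list (log axis, 0.01 added) in the 4 DC and 4 Si8 libraries of mCherry-negative cells, 1 point per library. Colonocyte and ileal enterocyte lists separate the regions in opposite directions, Paneth and leukocyte lists are lower in every DC library, and goblet and enteroendocrine lists overlap.

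The regional difference reached most of the transcriptome. Of the 15962 genes, 5393 (33.8%) were called higher in DC and 5273 (33.0%) lower, at a Benjamini-Hochberg adjusted p under 0.05 in edgeR's quasi-likelihood test, so that 66.8% of all tested genes were called in one direction or the other. At least a doubling was required for a second count, which held 2607 genes (16.3%) higher and 2492 (15.6%) lower. The libraries of the groups did not overlap for 9498 genes (59.5%). The median log2 fold change over all tested genes was 0.012. A count of called genes in any list below is read against these shares.

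Among genes of at least 10 CPM, those with the largest rise in DC were genes that Si8 other cells hardly expressed. Hoxb13, a homeobox gene of the hindmost body, had 303, 318, 266 and 265 CPM in DC other cells, against no count in any Si8 library. It was thus at least 12182-fold higher in DC, against a floor of 3 counts over the group. Tgm3, a transglutaminase that crosslinks proteins, had 2148, 2231, 2595 and 2428 CPM in DC other cells, against 0, 0.0787, 0.0329 and 0 CPM in Si8 other cells (log2 fold change 15.97, SE 0.29, edgeR adjusted p = 2.3e-19). Aqp8, an aquaporin, had 1018, 1000.3, 1106 and 1089 CPM in DC other cells, against 0.0361, 0, 0.0329 and 0.0663 CPM in Si8 other cells (log2 fold change 14.81, SE 0.24, edgeR adjusted p = 2.7e-20). Atp12a, the non-gastric proton-potassium pump, had 764, 855, 903 and 746 CPM in DC, against 0.0361, 0.0787, 0 and 0.0332 CPM in Si8 (log2 fold change 14.16, SE 0.26, edgeR adjusted p = 2.4e-19). That DC and Si8 libraries do not overlap was a condition for choosing these 4 genes.

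Several other genes had no count in Si8 other cells. Ly6g, a GPI-anchored surface protein best known from neutrophils, had 93.6, 111, 101 and 109 CPM in DC other cells and was at least 4355-fold higher. Fxyd4, a regulator of the sodium pump, had 31.2, 37.4, 34.2 and 28.7 CPM in DC and was at least 1384-fold higher. Vsig1, a junctional protein of the immunoglobulin family, was at least 725-fold higher, and the unstudied transcripts 2310079G19Rik and 5033404E19Rik at least 4083-fold and 634-fold higher. Thbs4, a matrix thrombospondin, averaged 312 ± 27.7 CPM in DC other cells and 0.0970 ± 0.0343 CPM in Si8 other cells (SD, n = 4 each; log2 fold change 11.61, SE 0.14, edgeR adjusted p = 1.8e-21). Fut9, which makes the Lewis x epitope, averaged 75.8 ± 13.6 CPM in DC other cells and 0.0287 ± 0.0374 CPM in Si8 other cells (SD, n = 4 each; log2 fold change 11.02, SE 0.27, edgeR adjusted p = 1.5e-17).

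The genes with the largest falls in DC were those that DC other cells hardly expressed. Olfm4, the glycoprotein that marks small intestinal stem cells, had no count in the 4 DC libraries, against 561, 513, 445 and 547 CPM in Si8 other cells, and was at least 11225-fold lower in DC. Reg3b, a bactericidal C-type lectin, had 2.63, 1.16, 2.96 and 0.886 CPM in DC other cells, against 18470.0, 20206, 17498 and 13082 CPM in Si8 other cells (log2 fold change -13.14, SE 0.46, edgeR adjusted p = 9.6e-14). Its neighbour Reg3g had 1.97, 0.548, 1.82 and 0.570 CPM in DC, against 10614, 12301, 10216 and 6535 CPM in Si8 (log2 fold change -12.97, SE 0.46, edgeR adjusted p = 1.7e-13); the pair is similar in sequence, and how reads were shared between such copies is not given in the sources used here. Enpep, the brush border glutamyl aminopeptidase, had 0.383, 0.183, 0.471 and 0.253 CPM in DC other cells, against 2371, 2128, 2495 and 2750.1 CPM in Si8 other cells (log2 fold change -12.87, SE 0.18, edgeR adjusted p = 5.6e-21). Lyz1 and Mptx2, both made by Paneth cells, were lower as well: Lyz1 had 0.0547, 0, 0 and 0.190 CPM in DC and 438, 345, 811 and 317 CPM in Si8, and Mptx2 had no count in DC and 55.7, 42.8, 110.0 and 33.9 CPM in Si8.

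**Figure D2:**
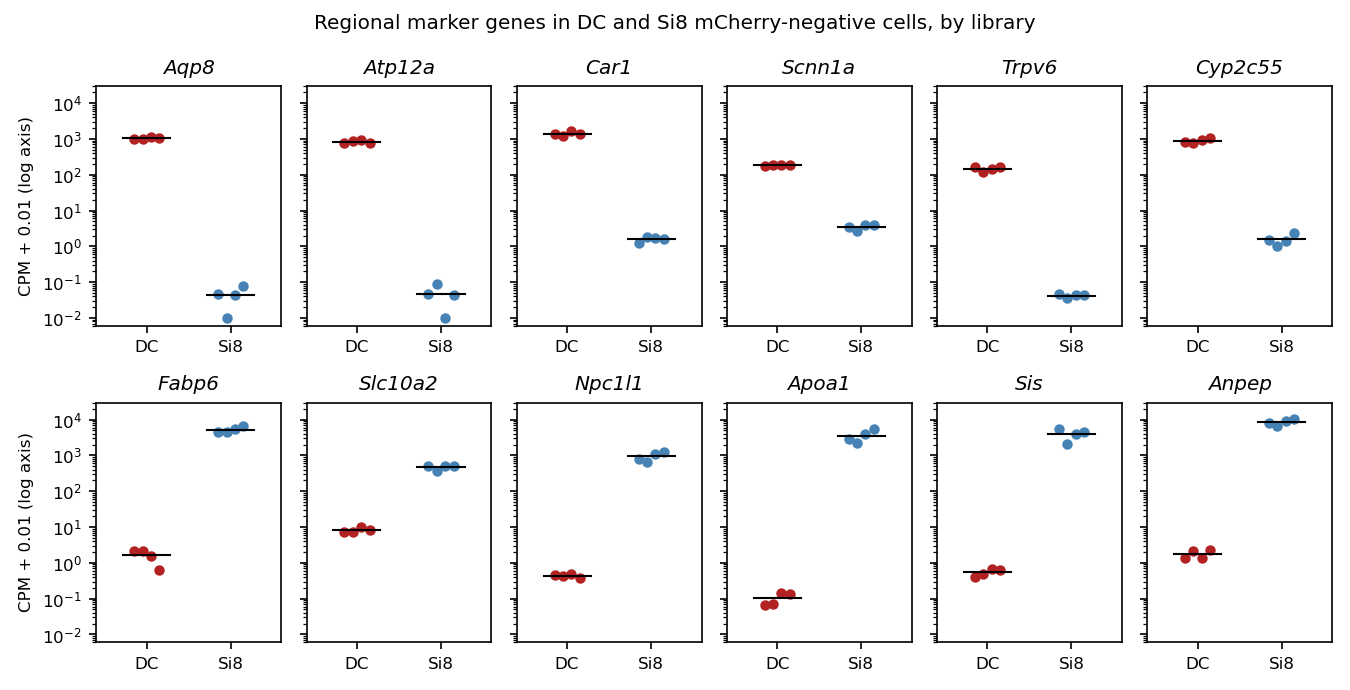
CPM (log axis, 0.01 added) of 6 genes higher in DC (top) and 6 genes lower in DC (bottom) in each library of mCherry-negative cells; points are libraries and bars are group means. In all 12 genes the 4 DC libraries lie apart from the 4 Si8 libraries, which was a condition for choosing some of them. Aqp8 had 1000.3 to 1106 CPM in DC and Fabp6 4371 to 6670.1 CPM in Si8.

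The promoters of 2 genes that rose and of 2 that fell are shown because each holds a short motif of a regional or enterocyte factor; they were chosen after these motifs and the genes' values had been seen. Sequences are from RefSeq (build GRCm38.p6), 5′ to 3′ on the strand of the gene, from 250 bases before to 50 bases after the start. Capitals mark matches, on either strand, to AGATAA or TGATAA for factors of the GATA family, TTTATG or TTTATT for CDX factors and CAAAGTCCA or CAAAGTTCA for HNF4 factors. Aqp8 lies at chr7:123462044-123462343, + strand, Cyp2c55 at chr19:39006769-39007068, + strand, Apoa4 at chr9:46240594-46240893, + strand and Sis at chr3:72967814-72968113, - strand.
Aqp8: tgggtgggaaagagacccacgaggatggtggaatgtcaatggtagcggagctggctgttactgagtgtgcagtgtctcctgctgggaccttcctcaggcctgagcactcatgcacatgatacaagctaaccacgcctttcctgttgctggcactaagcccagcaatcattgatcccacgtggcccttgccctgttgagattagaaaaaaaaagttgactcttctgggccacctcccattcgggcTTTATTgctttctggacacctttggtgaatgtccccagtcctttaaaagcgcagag
Cyp2c55: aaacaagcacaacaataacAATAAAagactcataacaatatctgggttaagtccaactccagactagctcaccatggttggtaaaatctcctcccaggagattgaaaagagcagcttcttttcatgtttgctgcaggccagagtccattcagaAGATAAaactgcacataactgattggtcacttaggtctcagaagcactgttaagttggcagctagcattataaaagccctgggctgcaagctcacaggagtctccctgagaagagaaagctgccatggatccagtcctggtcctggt
Apoa4: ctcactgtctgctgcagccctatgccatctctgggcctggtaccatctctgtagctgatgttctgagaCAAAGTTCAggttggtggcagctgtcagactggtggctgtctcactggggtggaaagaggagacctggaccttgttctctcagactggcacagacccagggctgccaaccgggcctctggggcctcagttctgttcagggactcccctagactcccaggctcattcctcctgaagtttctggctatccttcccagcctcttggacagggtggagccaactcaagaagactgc
Sis: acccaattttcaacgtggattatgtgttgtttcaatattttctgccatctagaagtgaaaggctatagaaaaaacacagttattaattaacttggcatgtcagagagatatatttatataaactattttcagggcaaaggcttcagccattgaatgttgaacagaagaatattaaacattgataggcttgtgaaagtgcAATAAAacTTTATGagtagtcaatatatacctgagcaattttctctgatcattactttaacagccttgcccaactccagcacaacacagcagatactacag

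The Aqp8 window has 1 CDX match that ends just before its start, Cyp2c55 has 1 CDX and 1 GATA match, Apoa4 has 1 HNF4 match, and Sis has 2 CDX matches on opposite strands. Over all tested genes with a promoter in the table, 20.3% of 10696 held a CDX match, 13% a GATA match and 1% an HNF4 match. Among genes at least 16-fold higher in DC (log2 of 4 or more; 271 with a promoter), the shares were 32.1% for CDX, 17.7% for GATA and 1.85% for HNF4. Among genes at least 16-fold lower (297 with a promoter), they were 28.6%, 26.6% and 6.06%. CDX matches were thus about as frequent in both classes, whereas GATA and HNF4 matches were more frequent in the genes that were lower in DC. The HNF4 shares rest on few genes, 5 in the higher and 18 in the lower class. Near copies were counted as separate genes: the defensins Defa21 and Defa22, both lower in DC, have the same window with the same GATA match. The windows also differed in base composition, with a median of 55.3% G or C in the genes that rose, 53% in those that fell and 60.3% over all, and its part in these shares was not tested. The motifs do not contain one another, although matches may share bases, and a match is a run of letters, not a binding site.

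Genes of the ileal uptake of bile acids were far lower in the colon. Of the bile acid genes, 0 of 9 tested members rose and 8 fell (median log2 fold change -5.86). Fabp6, the ileal bile acid binding protein, had 2.08, 2.13, 1.55 and 0.633 CPM in DC other cells, against 4409, 4371, 5391 and 6670.1 CPM in Si8 other cells (log2 fold change -11.65, SE 0.30, edgeR adjusted p = 1.3e-16). Slc10a2, the apical sodium-dependent bile acid carrier, had 7.11, 7.18, 9.95 and 8.29 CPM in DC, against 499, 359.6, 509 and 515 CPM in Si8 (log2 fold change -5.86, SE 0.20, edgeR adjusted p = 2e-14). Slc51a, a subunit of the basolateral exporter, had 0.985, 0.852, 0.471 and 0.759 CPM in DC, against 731, 579, 800.1 and 802 CPM in Si8 (log2 fold change -9.86, SE 0.20, edgeR adjusted p = 1e-18). The fall of the carrier left a detectable level in every DC library, which was not so for the hormone of this pathway: Fgf15, which the ileum sends to the liver to restrain bile acid synthesis, had 2 counts in DC other cells and 6786 in Si8 other cells. Its count ratio, Si8 over DC, was 1756 (95% counting interval 486 to 14501). Abcc2, an apical export pump, averaged 1.29 ± 0.239 CPM in DC other cells and 78.3 ± 30.02 CPM in Si8 other cells (SD, n = 4 each; log2 fold change -5.92, SE 0.32, edgeR adjusted p = 6.2e-11).

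Both subunits of the cobalamin receptor were lower as well. Cubn, the receptor of the cobalamin and intrinsic factor complex, had 0.711, 1.16, 1.08 and 0.759 CPM in DC other cells, against 859, 641, 997 and 1565 CPM in Si8 other cells (log2 fold change -10.10, SE 0.46, edgeR adjusted p = 2.9e-11). Its membrane partner Amn had 1.70, 1.40, 1.82 and 1.39 CPM in DC, against 107, 111, 193 and 194 CPM in Si8 (log2 fold change -6.58, SE 0.23, edgeR adjusted p = 3.5e-14). Tcn2, the transport protein that carries cobalamin into blood, was 4.76-fold lower in DC (log2 fold change -2.25, SE 0.11, edgeR adjusted p = 6.4e-13). In this list of receptors and endocytic genes 2 of 5 tested members rose and 3 fell (median log2 fold change -2.25), and the protease Ctsl was among those that rose (log2 fold change 2.37, SE 0.093, edgeR adjusted p = 2.2e-14).

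Genes of fat absorption fell together. In the dietary lipid list 1 of 20 tested members rose and 19 fell (median log2 fold change -4.51). Apoa1, the main protein of high-density lipoprotein, had 0.0547, 0.0608, 0.134 and 0.127 CPM in DC other cells, against 2814, 2166, 4036 and 5348 CPM in Si8 other cells (log2 fold change -15.18, SE 0.55, edgeR adjusted p = 5.2e-13). Apoa4, its neighbour and a chylomicron protein, had no count in DC, against 110.5, 124, 284 and 366 CPM in Si8, and was at least 4731-fold lower in DC. Si8 replicates differed here, with Apoa4 lowest in replicate 1 and highest in replicate 4. Mttp, which loads lipid onto apolipoprotein B, had 3.06, 3.89, 2.62 and 3.29 CPM in DC, against 1195, 1088, 1319 and 1459 CPM in Si8 (log2 fold change -8.61, SE 0.15, edgeR adjusted p = 1.8e-19). Npc1l1, the cholesterol importer that ezetimibe blocks, had 0.438, 0.426, 0.471 and 0.380 CPM in DC, against 810.4, 637, 1119.9 and 1269 CPM in Si8 (log2 fold change -11.11, SE 0.32, edgeR adjusted p = 3.6e-15). The 1 member that rose, Scarb1, is a lipoprotein receptor and is named because it was the exception (log2 fold change 3.89, SE 0.11, edgeR adjusted p = 1.8e-16).

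The enzymes that finish digestion at the brush border were lower in the colon without exception among those tested. Of the disaccharidases and peptidases, 0 of 16 tested members rose and 16 fell (median log2 fold change -6.52). Sis, sucrase-isomaltase, had 0.383, 0.487, 0.672 and 0.633 CPM in DC other cells, against 5566, 2129, 3837 and 4535 CPM in Si8 other cells (log2 fold change -12.86, SE 0.50, edgeR adjusted p = 1.5e-12). Anpep, aminopeptidase N, had 1.37, 2.13, 1.34 and 2.28 CPM in DC, against 7887, 6609.7, 9159 and 10341 CPM in Si8 (log2 fold change -12.22, SE 0.27, edgeR adjusted p = 4.5e-18). Xpnpep2, an aminopeptidase that cleaves before proline, was 738-fold lower (log2 fold change -9.53, SE 0.29, edgeR adjusted p = 1.4e-14), and lactase, Lct, 59.5-fold lower (log2 fold change -5.90, SE 1.19, edgeR adjusted p = 0.00059). Lct was low in Si8 too and spread widely there, at 1.77, 2.76, 12.5 and 35.2 CPM.

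Carriers of sugars, peptides, amino acids and nucleosides followed: 3 of 18 tested members rose and 14 fell (median log2 fold change -3.66). Slc6a19, the apical carrier of neutral amino acids, had 1.59, 1.89, 2.02 and 1.77 CPM in DC other cells, against 714, 541, 941 and 1075 CPM in Si8 other cells (log2 fold change -8.82, SE 0.29, edgeR adjusted p = 5e-14). Slc43a2, a basolateral amino acid carrier, was 167-fold lower (log2 fold change -7.39, SE 0.18, edgeR adjusted p = 1.5e-17), and Slc28a2, a purine nucleoside carrier, 218-fold lower (log2 fold change -7.77, SE 0.42, edgeR adjusted p = 2.8e-10). The glucose carriers differed from each other. Slc5a1, which takes up glucose with sodium, still had 197, 219, 193 and 177 CPM in DC other cells, against 1747, 1147, 1968 and 1696 CPM in Si8 other cells (log2 fold change -3.06, SE 0.15, edgeR adjusted p = 6.8e-13). Slc2a2, the basolateral glucose carrier, had 2 counts in DC and 3233 in Si8, a count ratio, Si8 over DC, of 836 (95% counting interval 231 to 6910.0).

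Genes for recovering salt and water rose in DC. Of the electrolyte and water genes, 16 of 18 tested members rose and 2 fell (median log2 fold change 3.32); the sodium pump subunit Atp1b1 was among those that fell (log2 fold change -0.38, SE 0.092, edgeR adjusted p = 0.0011). Scnn1a, the alpha subunit of the epithelial sodium channel, had 170.4, 184, 189.6 and 182 CPM in DC other cells, against 3.43, 2.65, 3.88 and 3.85 CPM in Si8 other cells (log2 fold change 5.72, SE 0.15, edgeR adjusted p = 3.2e-17). Scnn1b, the beta subunit, had only 2.13, 2.43, 1.61 and 2.03 CPM in DC other cells, against 2 counts in all of Si8, a count ratio, DC over Si8, of 130.4 (95% counting interval 35.4 to 1088). In the goblet sort of the DC Scnn1b was higher than in the other cells, at 40.7, 36.5, 32.7 and 26.5 CPM. Car1, a cytosolic carbonic anhydrase, had 1387, 1233, 1634 and 1366 CPM in DC other cells, against 1.23, 1.76, 1.68 and 1.62 CPM in Si8 other cells (log2 fold change 9.79, SE 0.18, edgeR adjusted p = 2.2e-19). Car2, a second cytosolic form, had 696, 667, 596 and 681 CPM in DC, against 3.11, 3.07, 2.63 and 2.39 CPM in Si8 (log2 fold change 7.88, SE 0.11, edgeR adjusted p = 4.3e-21). The values of both enzymes lay far apart between regions, and the 4 DC libraries stayed within a narrow range.

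Metal and vitamin genes moved both ways. In that list 7 of 15 tested members rose and 6 fell (median log2 fold change -0.11), beside 33.8% and 33.0% of all tested genes. Trpv6, the apical calcium channel, had 159.7, 115, 143 and 162 CPM in DC other cells, against 0.0361, 0.0262, 0.0329 and 0.0332 CPM in Si8 other cells (log2 fold change 11.95, SE 0.34, edgeR adjusted p = 1.4e-15). S100g, the calcium-binding protein calbindin-D9k, had 28.2, 31.8, 23.7 and 39.6 CPM in DC, against 3.68, 2.62, 2.50 and 5.14 CPM in Si8 (log2 fold change 3.15, SE 0.22, edgeR adjusted p = 4.3e-10). Slc40a1, the iron exporter ferroportin, rose as well (log2 fold change 0.83, SE 0.11, edgeR adjusted p = 1.7e-06), whereas the iron importer Slc11a2 (log2 fold change -0.74, SE 0.11, edgeR adjusted p = 9.2e-06) and the carotene cleaving enzyme Bco1 (log2 fold change -1.96, SE 0.20, edgeR adjusted p = 3.1e-08) fell.

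Anion secretion showed a swap between related genes. Over the list, 6 of 15 tested members rose and 7 fell (median log2 fold change -0.32), beside 33.8% and 33.0% of all tested genes. Guca2a, the hormone guanylin, had 1017, 979.5, 1158 and 1039 CPM in DC other cells, against 164, 156, 186 and 203 CPM in Si8 other cells (log2 fold change 2.56, SE 0.11, edgeR adjusted p = 6.8e-14). Guca2b, uroguanylin, went the other way, with 4.05, 3.47, 3.16 and 3.92 CPM in DC, against 84.96, 89.9, 127 and 143 CPM in Si8 (log2 fold change -4.92, SE 0.19, edgeR adjusted p = 9.1e-14). Slc26a6, an apical chloride-bicarbonate exchanger, was 289.8-fold lower in DC (log2 fold change -8.18, SE 0.19, edgeR adjusted p = 1.4e-17), and Clca4b 348-fold lower (log2 fold change -8.44, SE 0.22, edgeR adjusted p = 1.7e-16). Cftr, the chloride channel, differed less, at 273 ± 19.9 CPM in DC and 157 ± 23.3 CPM in Si8 (SD, n = 4 each; log2 fold change 0.80, SE 0.11, edgeR adjusted p = 3.9e-06). Clca4b has near neighbours of similar sequence, so that its value is uncertain in the same way as that of the Reg3 genes.

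**Figure D3:**
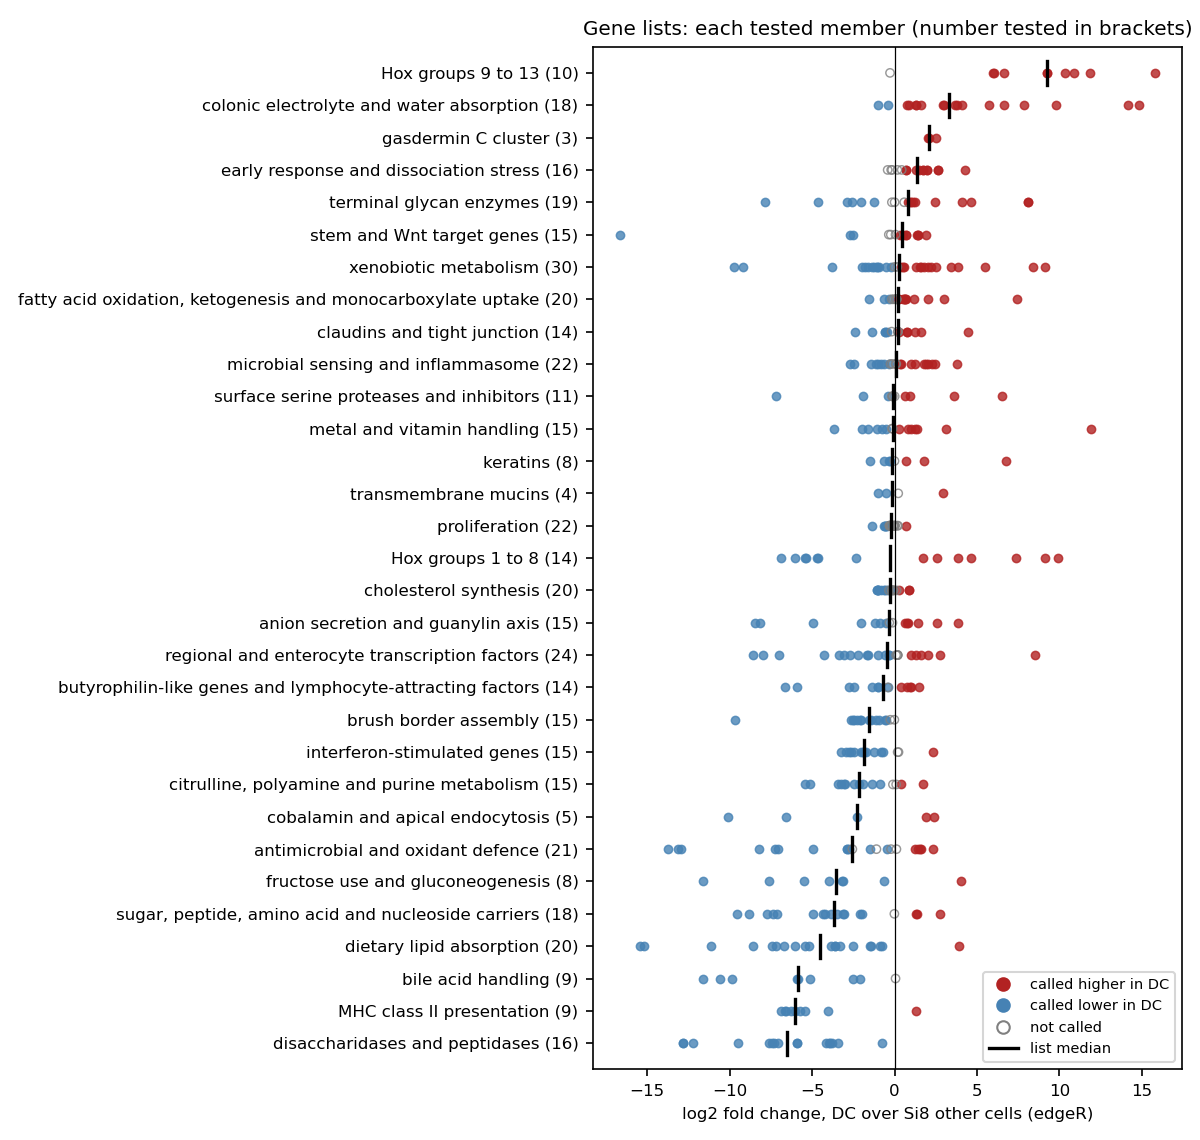
Log2 fold change (DC over Si8 other cells) of every tested member of 31 gene lists, ordered by list median; filled points are called genes, open points are not called, and black bars are medians. Medians run from -6.52 for disaccharidases and peptidases to 9.24 for Hox groups 9 to 13, and most lists of intermediary metabolism and cell surface genes are centred near 0.

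In fuel use, single genes moved more than the pathway. Of the genes of fatty acid oxidation and ketogenesis, 11 of 20 tested members rose and 3 fell (median log2 fold change 0.22). Slc16a1, a carrier of butyrate and other monocarboxylates, had 539.9, 478, 499 and 550.3 CPM in DC, against 151, 131, 114 and 117 CPM in Si8 (log2 fold change 2.01, SE 0.10, edgeR adjusted p = 1.5e-12). Slc5a8, the sodium-coupled carrier of the same acids, did not pass the test (log2 fold change -0.16, SE 0.13, edgeR adjusted p = 0.28). The nuclear receptors of fat metabolism split, Pparg being 8.10-fold higher (log2 fold change 3.02, SE 0.12, edgeR adjusted p = 4.7e-14) and Ppara 2.94-fold lower (log2 fold change -1.56, SE 0.14, edgeR adjusted p = 5.1e-09).

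Sugar and nitrogen metabolism was lower in DC. In the list of fructose use and gluconeogenesis 1 of 8 tested members rose and 7 fell (median log2 fold change -3.58). Khk, which takes fructose into metabolism, had 8.70, 9.13, 7.87 and 9.87 CPM in DC other cells, against 138, 94.5, 154 and 174 CPM in Si8 other cells (log2 fold change -3.98, SE 0.15, edgeR adjusted p = 2.5e-14). G6pc, glucose-6-phosphatase, had no count in DC and 18.8, 10.2, 15.7 and 19.3 CPM in Si8, at least 339.6-fold lower. The exception was Pck1, which opens gluconeogenesis from oxaloacetate, with 242, 188, 201 and 231 CPM in DC, against 9.14, 11.6, 13.1 and 19.8 CPM in Si8 (log2 fold change 4.01, SE 0.19, edgeR adjusted p = 3.5e-12). In citrulline, polyamine and purine metabolism 2 of 15 tested members rose and 11 fell (median log2 fold change -2.13). Cps1, carbamoyl phosphate synthetase of the intestinal citrulline route, was 34.7-fold lower (log2 fold change -5.12, SE 0.18, edgeR adjusted p = 1.3e-14), and Ada, adenosine deaminase, 43.2-fold lower (log2 fold change -5.43, SE 0.37, edgeR adjusted p = 6.7e-09).

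Genes of cholesterol synthesis changed little. In that list 3 of 20 tested members rose and 10 fell (median log2 fold change -0.30), and the range ran from -1.06 to 0.88. The squalene epoxidase Sqle (log2 fold change -1.01, SE 0.11, edgeR adjusted p = 9.8e-08) and the regulator Srebf2 (log2 fold change -1.03, SE 0.11, edgeR adjusted p = 6.7e-08) fell. Xenobiotic genes were called in both directions: 15 of 30 tested members rose and 13 fell (median log2 fold change 0.29). Over all tested genes, 33.8% were higher and 33.0% lower. Cyp2c55, a cytochrome P450 whose promoter is shown above, had 800.1, 776, 934 and 1032 CPM in DC other cells, against 1.52, 0.997, 1.38 and 2.39 CPM in Si8 other cells (log2 fold change 9.15, SE 0.31, edgeR adjusted p = 1.1e-13). Sult1a1, a phenol sulfotransferase, had 149.5, 170.4, 145 and 175 CPM in DC, against 0.614, 0.262, 0.493 and 0.564 CPM in Si8 (log2 fold change 8.40, SE 0.17, edgeR adjusted p = 1e-18), and the alcohol dehydrogenase Adh1 was 45.6-fold higher (log2 fold change 5.51, SE 0.15, edgeR adjusted p = 5.1e-17). Members of the Cyp3a family were lower, with no count for Cyp3a11 in DC and 1.55, 1.92, 3.35 and 5.07 CPM in Si8, at least 63.99-fold lower. The cytochrome families hold near copies, and how reads were shared between them is not known here.

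The Hox clusters carried one of the sharpest regional contrasts, and the clusters did not move alike. Of Hox groups 9 to 13, 9 of 10 tested members rose and 0 fell (median log2 fold change 9.24). Of Hox groups 1 to 8, 7 of 14 tested members rose and 7 fell (median log2 fold change -0.30), and the split followed the cluster: Hoxa2 to Hoxa7 rose, whereas Hoxb3 to Hoxb8 and Hoxd4 fell. Hoxa13 had 48.5, 43.7, 48.95 and 52.8 CPM in DC other cells, against 1 count in all of Si8, a count ratio, DC over Si8, of 6122 (95% counting interval 1098 to 241890.0). Hoxd13 had 24.7, 28.4, 21.7 and 21.8 CPM in DC, against 1 count in Si8, a count ratio, DC over Si8, of 3063 (95% counting interval 549 to 121060.0). Hoxa5, near the middle of its cluster, had 17.1, 13.1, 14.3 and 15.2 CPM in DC other cells, against 0.0361, 0.0787, 0.164 and 0.0663 CPM in Si8 other cells (log2 fold change 7.34, SE 0.23, edgeR adjusted p = 4.8e-16). In the B cluster the order was reversed up to group 8, as in Hoxb7, with 0.109, 0.183, 0 and 0 CPM in DC, against 11.6, 10.2, 8.16 and 8.16 CPM in Si8 (log2 fold change -6.87, SE 0.33, edgeR adjusted p = 5.9e-13). Hoxb9 was at a similar level in both, 20.6, 20.7, 21.1 and 18.8 CPM in DC and 30.9, 25.9, 18.6 and 22.8 CPM in Si8, and did not pass the test (log2 fold change -0.28, SE 0.13, edgeR adjusted p = 0.06). Without Si8 replicate 3 it was called lower (log2 fold change -0.39, edgeR adjusted p = 0.0055), as it was with the Si8 other and goblet libraries paired as a block (log2 fold change -0.26, edgeR adjusted p = 0.0105). The next gene of that cluster tested, Hoxb13, was the one with no count in Si8. Hoxb9 is named because it stands at this turn and was chosen after its value was seen.

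**Figure D4:**
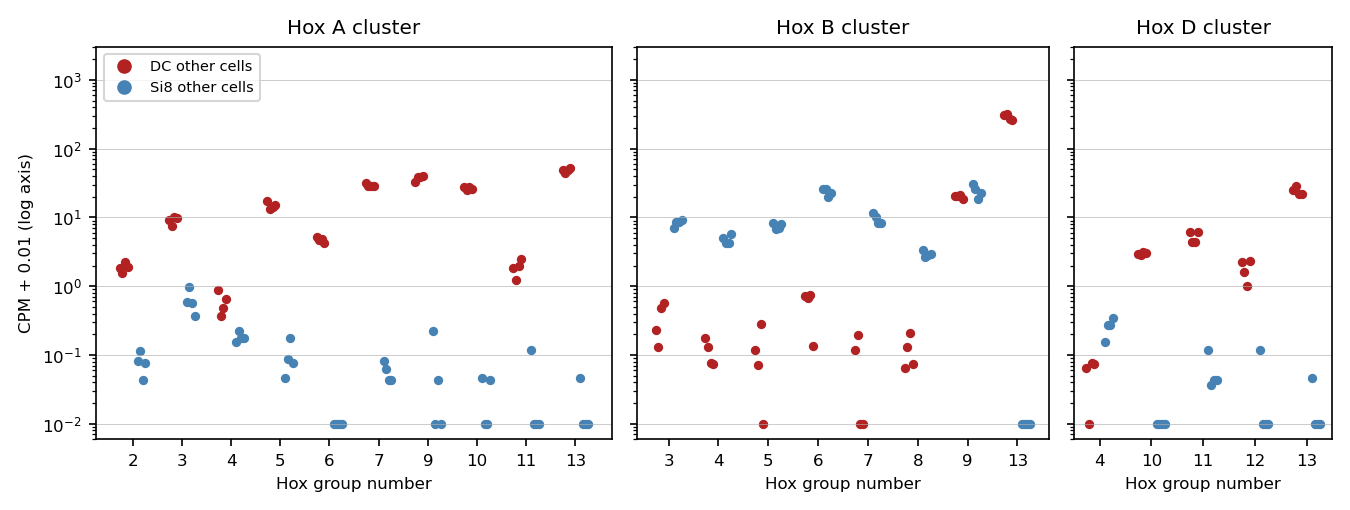
CPM (log axis, 0.01 added) of Hox genes by group number in the A, B and D clusters; each point is 1 library of mCherry-negative cells. In the A cluster every gene plotted is higher in DC, in the B cluster groups 3 to 8 are higher in Si8 and group 13 only has counts in DC, and in the D cluster groups 10 to 13 are higher in DC.

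Other regional factors fell more often than they rose: 6 of 24 tested members rose and 14 fell (median log2 fold change -0.47). Gata5, a GATA factor of the small intestine, had 0.547, 0.730, 0.403 and 0.443 CPM in DC other cells, against 121, 110.4, 156 and 159 CPM in Si8 other cells (log2 fold change -7.98, SE 0.22, edgeR adjusted p = 2.7e-16). Maf, a factor of the villus enterocyte programme, had 3.61, 2.56, 4.57 and 4.24 CPM in DC, against 439.7, 379.7, 576 and 517 CPM in Si8 (log2 fold change -7.00, SE 0.22, edgeR adjusted p = 8.6e-15). Osr2, an odd-skipped zinc finger factor, was 393-fold lower (log2 fold change -8.62, SE 0.20, edgeR adjusted p = 4.5e-18). Foxd2, a forkhead factor, ran the other way, with 48.1, 40.5, 40.9 and 49.99 CPM in DC, against 0.108, 0.184, 0.0658 and 0.0995 CPM in Si8 (log2 fold change 8.51, SE 0.18, edgeR adjusted p = 1.2e-18). Cdx1, a caudal factor of the whole lower gut, did not pass the test (log2 fold change 0.19, SE 0.091, edgeR adjusted p = 0.069), but was called higher without Si8 replicate 2 (log2 fold change 0.26, edgeR adjusted p = 0.013) and with the Si8 sorts paired as a block (log2 fold change 0.20, edgeR adjusted p = 0.0153).

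Called genes also lay side by side on the chromosomes. Among 15287 tested genes with 1 position in the GENCODE M21 annotation (GRCm38, the mm10 build), 40 runs of at least 4 neighbours were each called in 1 direction with log2 fold changes of 2 or more in size, 18 higher and 22 lower in DC; 2 of the 18 hold nuclear copies of mitochondrial genes, which are described at the end, and 16 do not. The longest run of higher genes held 13, from Hoxa5 to Evx1 on chromosome 6 (52201754 to 52318378), and took in the long noncoding RNAs Hoxa11os and Hottip. Those overlap or adjoin genes of the other strand, and the strand setting of the counting is not given in the sources used here, so their own values are uncertain. On chromosome 11, 5 neighbours around Hoxb13 (96133786 to 96200311) were higher and 7 from Hoxb8 to Skap1 (96281905 to 96759130) were lower. Skap1 is a T cell adaptor. Lymphocyte markers were lower in DC as given above, and their part in the value of Skap1 was not tested. Evx2 and Hoxd13 to Hoxd10 formed a run of 5 on chromosome 2 (74652991 to 74695105), and 5 neighbours around Foxd2 one on chromosome 4 (114406724 to 114921967).

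Further runs of higher genes were made of families. They were Gstm genes of glutathione conjugation on chromosome 3 (6 genes, median log2 fold change 2.79), Cyp2d genes on chromosome 15 (6 genes, 8.03), Gsdmc2 to Gsdmc4 with a pseudogene on the same chromosome (4 genes, 2.29), and the chemokine genes Cxcl5, Pf4, Cxcl1 and Cxcl2 on chromosome 5 (4 genes, 3.70). Runs of lower genes held 2 groups of defensins on chromosome 8 (9 and 8 genes), Reg3b, Reg3a, Reg1 and Reg3g on chromosome 6 (4 genes, -13.05), Apol genes on chromosome 15 (8 genes, -2.93), and class II and antigen processing genes on chromosome 17. Immunoglobulin and T cell receptor segments and the mast cell proteases Mcpt1, Mcpt9 and Mcpt2 formed runs as well, and these are genes of leukocytes. The part of cell makeup in these runs was not tested. Family members share sequence, so neighbours in such runs are not independent values.

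Defence genes differed in kind. In the antimicrobial and oxidant list 5 of 21 tested members rose and 12 fell (median log2 fold change -2.56). Nos2, the inducible nitric oxide synthase, had 5.47, 2.68, 6.72 and 5.63 CPM in DC other cells, against 1509.8, 1182, 2040.3 and 1488 CPM in Si8 other cells (log2 fold change -8.25, SE 0.33, edgeR adjusted p = 1.1e-12). Reg3a had no count in DC, against 66.1, 94.2, 65.4 and 44.9 CPM in Si8, and was at least 1511-fold lower. Paneth products were at the floor of the measurement: Defa24 had no count in DC, against 278, 243, 627 and 231 CPM in Si8, and was at least 7409-fold lower. Si8 replicate 3 had the highest value of each defensin named here and of the summed Paneth list. Defensin genes are near copies of one another, so a value for one may hold reads of others.

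Genes that sense microbes were called in both directions, with 10 of 22 tested members higher and 8 lower (median log2 fold change 0.088). The shares over all tested genes were 33.8% higher and 33.0% lower, so such a split is not particular to this list. Tlr4, the receptor of lipopolysaccharide, had 78.8, 68.8, 84.4 and 70.3 CPM in DC other cells, against 6.68, 4.86, 5.33 and 5.47 CPM in Si8 other cells (log2 fold change 3.76, SE 0.11, edgeR adjusted p = 3.5e-16). Tlr1 was 4.83-fold higher (log2 fold change 2.27, SE 0.11, edgeR adjusted p = 7.1e-13), and Aim2, a sensor of DNA, 5.50-fold higher (log2 fold change 2.46, SE 0.11, edgeR adjusted p = 2.4e-13). Naip6, a sensor of the flagellin inflammasome family, had 165, 173, 189 and 171 CPM in DC, against 970.2, 872, 1352 and 1279 CPM in Si8 (log2 fold change -2.68, SE 0.16, edgeR adjusted p = 1.7e-11), and Naip5 was 5.56-fold lower (log2 fold change -2.47, SE 0.18, edgeR adjusted p = 1.6e-09). The Naip genes are close copies. The cell source of the toll-like receptor transcripts was not tested. All 3 members of the gasdermin C cluster rose (median log2 fold change 2.10), led by Gsdmc4 with 767, 679.8, 706 and 656 CPM in DC, against 144, 143, 102 and 110.5 CPM in Si8 (log2 fold change 2.49, SE 0.12, edgeR adjusted p = 4.9e-13).

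Antigen presentation by class II was lower in DC. In that list 1 of 9 tested members rose and 8 fell (median log2 fold change -6.07). Cd74, the invariant chain, had 11.9, 7.91, 12.6 and 9.05 CPM in DC other cells, against 1245, 924, 1301 and 1499.6 CPM in Si8 other cells (log2 fold change -6.90, SE 0.23, edgeR adjusted p = 1.9e-14). H2-Aa had 6.02, 4.26, 7.46 and 5.57 CPM in DC, against 380.3, 259, 409 and 510.1 CPM in Si8 (log2 fold change -6.07, SE 0.25, edgeR adjusted p = 1e-12). Ciita, the activator of class II transcription, had 1.20, 0.548, 1.28 and 0.759 CPM in DC, against 80.6, 73.3, 108 and 98.2 CPM in Si8 (log2 fold change -6.56, SE 0.25, edgeR adjusted p = 8.8e-14). Summed B cell, plasma cell and myeloid markers moved in the same direction, as given above, and their part in the class II result was not tested. In the goblet sorts Cd74 had 0.264, 0.970, 0.774 and 1.17 CPM in DC, against 482, 356, 353 and 429 CPM in Si8. B and plasma cell markers there summed to 0.0468 to 0.373 CPM in DC and 9.96 to 16.1 CPM in Si8, well below their sums in the Si8 other cells. Myeloid markers there summed to 4.49 to 6.72 CPM in DC and 36.6 to 84.9 CPM in Si8, beside 51.8 to 92.2 CPM in the Si8 other cells. The cell source of Cd74 in either sort was not tested. The protease Ctss was the 1 member that rose and is named as the exception (log2 fold change 1.33, SE 0.082, edgeR adjusted p = 2.6e-11).

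Interferon-stimulated genes were also lower: 1 of 15 tested members rose and 12 fell (median log2 fold change -1.84). Usp18, which ends interferon signalling, had 1.70, 1.64, 2.08 and 2.28 CPM in DC other cells, against 24.99, 10.2, 18.6 and 18.1 CPM in Si8 other cells (log2 fold change -3.22, SE 0.31, edgeR adjusted p = 5.8e-08). Zbp1, a nucleic acid sensor, was 7.59-fold lower (log2 fold change -2.92, SE 0.22, edgeR adjusted p = 2.8e-09), and Ifit1 3.30-fold lower (log2 fold change -1.72, SE 0.24, edgeR adjusted p = 9.5e-06). Among factors that hold or attract lymphocytes, 5 of 14 tested members rose and 8 fell (median log2 fold change -0.71). Ccl25, the chemokine that draws lymphocytes to the small intestine, had 2.85, 4.14, 3.77 and 3.54 CPM in DC, against 384, 309, 329 and 386 CPM in Si8 (log2 fold change -6.63, SE 0.13, edgeR adjusted p = 8.2e-19). Btnl6, a butyrophilin-like gene of the villus, had 125, 125, 142 and 127 CPM in DC, against 632, 563, 786 and 822 CPM in Si8 (log2 fold change -2.43, SE 0.12, edgeR adjusted p = 1.1e-12), and Btnl1 was 6.68-fold lower (log2 fold change -2.74, SE 0.12, edgeR adjusted p = 6e-14). The lymphocyte markers themselves were lower in DC in 14 of 14 tested genes, and their part in the interferon result was not tested.

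At the cell surface the brush border genes shared the fall of digestion to a smaller degree. In the brush border list 0 of 15 tested members rose and 13 fell (median log2 fold change -1.57). Vil1, villin, had 783, 732, 923 and 815 CPM in DC other cells, against 4129, 3320.4, 4918 and 5259 CPM in Si8 other cells (log2 fold change -2.44, SE 0.14, edgeR adjusted p = 8.8e-12). Pdzk1, a scaffold of apical carriers, had 0.274, 0.548, 0.269 and 0.0633 CPM in DC, against 189.6, 162, 252 and 368 CPM in Si8 (log2 fold change -9.68, SE 0.49, edgeR adjusted p = 1.4e-10). Claudins moved in both directions: 6 of 14 tested members rose and 5 fell (median log2 fold change 0.21). These counts lie near the shares over all tested genes, 33.8% higher and 33.0% lower. Cldn8, a claudin of tight epithelia, had 225, 180.2, 184 and 199.8 CPM in DC, against 9.57, 12.6, 6.48 and 7.06 CPM in Si8 (log2 fold change 4.46, SE 0.19, edgeR adjusted p = 5.6e-13). Cldn15 (log2 fold change -2.38, SE 0.077, edgeR adjusted p = 9.3e-16) and Cldn2 (log2 fold change -1.39, SE 0.14, edgeR adjusted p = 6.4e-08), which both form paracellular cation channels, fell.

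Enzymes that finish glycans moved in both directions: 10 of 19 tested members rose and 6 fell (median log2 fold change 0.84). Over all tested genes, 33.8% were higher and 33.0% lower. St6galnac6, a sialyltransferase, had 605, 617, 574 and 565 CPM in DC other cells, against 2.17, 1.73, 2.07 and 2.49 CPM in Si8 other cells (log2 fold change 8.13, SE 0.20, edgeR adjusted p = 3e-17). St3gal6, a second one, was 25.2-fold higher (log2 fold change 4.65, SE 0.089, edgeR adjusted p = 3.6e-19). Gal3st2, a galactose sulfotransferase, had 0.438, 0.365, 0.269 and 0.506 CPM in DC, against 84.96, 79.5, 104 and 107 CPM in Si8 (log2 fold change -7.87, SE 0.25, edgeR adjusted p = 4.7e-15). Of the transmembrane mucins, Muc3 did not pass the test (log2 fold change 0.22, SE 0.15, edgeR adjusted p = 0.21), Muc13 was 1.98-fold lower (log2 fold change -0.98, SE 0.12, edgeR adjusted p = 3.2e-07), and Muc4 was called lower (log2 fold change -0.54, SE 0.22, edgeR adjusted p = 0.041). The call of Muc4 was lost without DC replicate 1, 2 or 4 and without Si8 replicate 2 or 3 (edgeR adjusted p of 0.0613 to 0.128). Of the keratins 3 of 8 tested members rose and 4 fell (median log2 fold change -0.14), led by Krt36, a keratin of the hair type, with 32.8, 13.8, 27.2 and 20.4 CPM in DC, against 0.325, 0.131, 0.0987 and 0.332 CPM in Si8 (log2 fold change 6.75, SE 0.39, edgeR adjusted p = 6.3e-11).

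Of the surface proteases, 4 of 11 tested members rose and 3 fell (median log2 fold change -0.11). These counts are near the shares over all tested genes, 33.8% higher and 33.0% lower. Tmprss2 had 693, 635, 697 and 669 CPM in DC other cells, against 55.7, 60.9, 54.4 and 46.4 CPM in Si8 other cells (log2 fold change 3.63, SE 0.09, edgeR adjusted p = 1.7e-17). Klk1, tissue kallikrein, had 425, 487, 433 and 409 CPM in DC, against 6.14, 2.89, 5.26 and 5.01 CPM in Si8 (log2 fold change 6.52, SE 0.19, edgeR adjusted p = 2.6e-16). Prss8, which activates the epithelial sodium channel, was 1.90-fold higher (log2 fold change 0.93, SE 0.11, edgeR adjusted p = 5.1e-07), and Prss27 145-fold lower (log2 fold change -7.18, SE 0.41, edgeR adjusted p = 2.8e-11).

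Most proliferation genes did not pass the test. Of the proliferation genes 1 of 22 tested members rose and 6 fell (median log2 fold change -0.23), and Mki67 had 327, 395, 341 and 285 CPM in DC other cells, against 307, 393, 232 and 231 CPM in Si8 other cells, which did not pass the test (log2 fold change 0.21, SE 0.16, edgeR adjusted p = 0.25). Without Si8 replicate 2 it was called higher in DC (log2 fold change 0.39, edgeR adjusted p = 0.0219), as it was with the Si8 sorts paired as a block (log2 fold change 0.25, edgeR adjusted p = 0.0451). The number of proliferation genes that fell was 10 without DC replicate 2, and 3 without DC replicate 3 or 4 or without Si8 replicate 1 or 2. Ccnd1, cyclin D1, fell in DC (log2 fold change -1.38, SE 0.19, edgeR adjusted p = 5.3e-06). Of the stem and Wnt target genes 9 of 15 tested members rose and 3 fell (median log2 fold change 0.43). Lgr5, the receptor that marks crypt base stem cells, had 12.5, 17.1, 12.9 and 11.8 CPM in DC, against 18.3, 21.2, 13.6 and 15.98 CPM in Si8, and did not pass the test (log2 fold change -0.35, SE 0.20, edgeR adjusted p = 0.13). With no low-count filter Lgr5 was called lower (log2 fold change -0.36, edgeR adjusted p = 0.0125). Axin2, a feedback target of Wnt, was 5.78-fold lower (log2 fold change -2.53, SE 0.11, edgeR adjusted p = 1.8e-13), and Sox9 3.68-fold higher (log2 fold change 1.88, SE 0.15, edgeR adjusted p = 1.2e-09). Early response genes, which tissue dissociation can induce, were higher in DC: 11 of 16 tested members rose and 0 fell (median log2 fold change 1.38). Atf3 had 2751, 1815, 2923 and 2777 CPM in DC, against 262, 535, 463 and 362 CPM in Si8 (log2 fold change 2.66, SE 0.32, edgeR adjusted p = 1.8e-06), and Nr4a1 was 19.5-fold higher (log2 fold change 4.29, SE 0.47, edgeR adjusted p = 2e-06). Both regions went through the protocol given for dissociation, and its part in other results was not tested.

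The goblet sorts of the same regions showed how much of this was shared. Of the 5393 genes higher in DC other cells, 3466 were also higher in DC goblet cells, which is 64.3% of the first list and 75.2% of the 4606 of the goblet list. Of the 5273 lower genes 3654 were shared, which is 69.3% of the first list and 68.6% of the 5324 of the goblet list. The regional difference itself differed between the sorts in 5149 genes (32.3%). Of the 4108 genes called both there and in the other cells, 572 were called in the opposite direction in the goblet cells.

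Gene groups differed in how far the sorts shared the change, read against the 32.3% of all tested genes whose regional difference differed. The difference was called in 0 of 10 Hox genes of groups 9 to 13 and in 2 of 14 of groups 1 to 8. Apart from Hoxb9, the genes of groups 9 to 13 had few or no counts in both Si8 sorts. The test could therefore hardly find a difference there. Within DC, Hoxd11 had 6.13, 4.44, 4.44 and 6.14 CPM in other cells and 1.90, 1.64, 1.82 and 2.06 CPM in goblet cells. Hoxa11 leaned the other way, at 1.86, 1.22, 1.95 and 2.47 CPM and 3.60, 3.51, 3.26 and 4.54 CPM. Among proliferation genes the difference between sorts was called in 3 of 22. In cholesterol synthesis it was called in 19 of 20: in the other cells 3 rose and 10 fell in DC, whereas in goblet cells 12 rose and 2 fell. Hmgcs1, an early enzyme of that pathway, had 580.0, 625, 574 and 552 CPM in DC other cells, against 875, 604, 747 and 722 CPM in Si8 other cells, and 1329, 779, 1036 and 1002 CPM in DC goblet cells, against 503, 539, 811 and 569 CPM in Si8 goblet cells (difference -1.11, SE 0.22, edgeR adjusted p = 0.00066). In the other cells alone, Hmgcs1 did not pass the test of DC against Si8 (log2 fold change -0.34, edgeR adjusted p = 0.063). It was called lower under 5 of the alternatives given at the end. Genes of one pathway share regulators and are not independent values. The sorts were also purified on different columns, Mini for other cells and MinElute for goblet cells, so column and sort cannot be told apart.

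Genes whose colonic rise was larger in the other cells were led by Sptssb, a small subunit of serine palmitoyltransferase. It had 56.6, 48.6, 61.8 and 56.95 CPM in DC other cells, against 0.506, 0.735, 0.460 and 0.564 CPM in Si8 other cells, but 1.96, 2.91, 2.38 and 1.97 CPM in DC goblet cells, against 6.23, 7.14, 12.01 and 8.92 CPM in Si8 goblet cells. The difference of the log2 fold changes was 8.51, SE 0.29, edgeR adjusted p = 8.6e-14. Myof, a membrane repair ferlin, had 101, 75.1, 99.2 and 102 CPM in DC other cells, against 2.02, 1.86, 3.12 and 1.33 CPM in Si8 other cells, but 22.5, 25.8, 25.5 and 23.9 CPM in DC goblet cells, against 107, 114, 166 and 128 CPM in Si8 goblet cells (difference 7.90, SE 0.26, edgeR adjusted p = 3.6e-13). Mgll, monoglyceride lipase, was likewise higher in DC among other cells (log2 fold change 3.55) and lower in DC among goblet cells (-4.06; difference 7.62, SE 0.27, edgeR adjusted p = 1.1e-13). For these 3 genes the region changed opposite ways in the sorts. Anxa3, an annexin (difference 6.29, SE 0.30, edgeR adjusted p = 6.7e-11), Zbtb7c, a zinc finger factor (difference 6.12, SE 0.39, edgeR adjusted p = 1.2e-09), and Aqp8 (difference 6.51, SE 0.88, edgeR adjusted p = 1e-05) rose in both sorts and rose more in the other cells.

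Of the 8 genes with the opposite difference, 5 had their highest level in DC goblet cells and 3, Gal3st2, Xpnpep2 and Podn, in Si8 other cells. Cmah, which converts one sialic acid to another, had 3.61, 3.65, 4.30 and 5.25 CPM in DC other cells, against 0.939, 0.656, 0.987 and 0.464 CPM in Si8 other cells, and 197, 224, 225 and 160.1 CPM in DC goblet cells, against 0.0549, 0.0531, 0.101 and 0.202 CPM in Si8 goblet cells (difference -8.42, SE 0.41, edgeR adjusted p = 1.6e-11). Best2, a bicarbonate channel of colonic goblet cells (difference -7.92, SE 1.29, edgeR adjusted p = 8.3e-05), and Nov, a secreted matricellular protein (difference -8.45, SE 2.01, edgeR adjusted p = 0.0031), had 0.602, 0.974, 0.672 and 0.253 and 3.45, 6.88, 3.50 and 4.49 CPM in DC other cells. Goblet cells of DC held 278, 178, 207 and 195 CPM of Best2 and 1619, 1564, 1536 and 1238 CPM of Nov. The other cells thus held both genes at a small part of the goblet level, and carry-over of goblet cells into the mCherry-negative gate was not tested. Without Si8 replicate 2 the difference of Nov did not pass the test (edgeR adjusted p = 0.0883). B3gnt6, the core 3 synthase of mucin glycans, fell in DC other cells (log2 fold change -1.95) and rose in DC goblet cells (5.73; difference -7.68, SE 0.25, edgeR adjusted p = 5.9e-14), as did the trypsin inhibitor Spink1 (log2 fold changes -4.07 and 3.26; difference -7.32, SE 0.17, edgeR adjusted p = 4.5e-16). Gal3st2 had a goblet log2 fold change of 0.55 (edgeR adjusted p = 0.0038) beside its fall in the other cells (difference -8.42, SE 0.30, edgeR adjusted p = 4.7e-13). Xpnpep2 (difference -7.18, SE 0.35, edgeR adjusted p = 1.1e-10) and Podn, a matrix proteoglycan (difference -7.04, SE 1.91, edgeR adjusted p = 0.0092), fell in both sorts and fell more in the other cells. Podn had no count in DC other cells, so the size of its difference depends on the prior count.

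**Figure D5:**
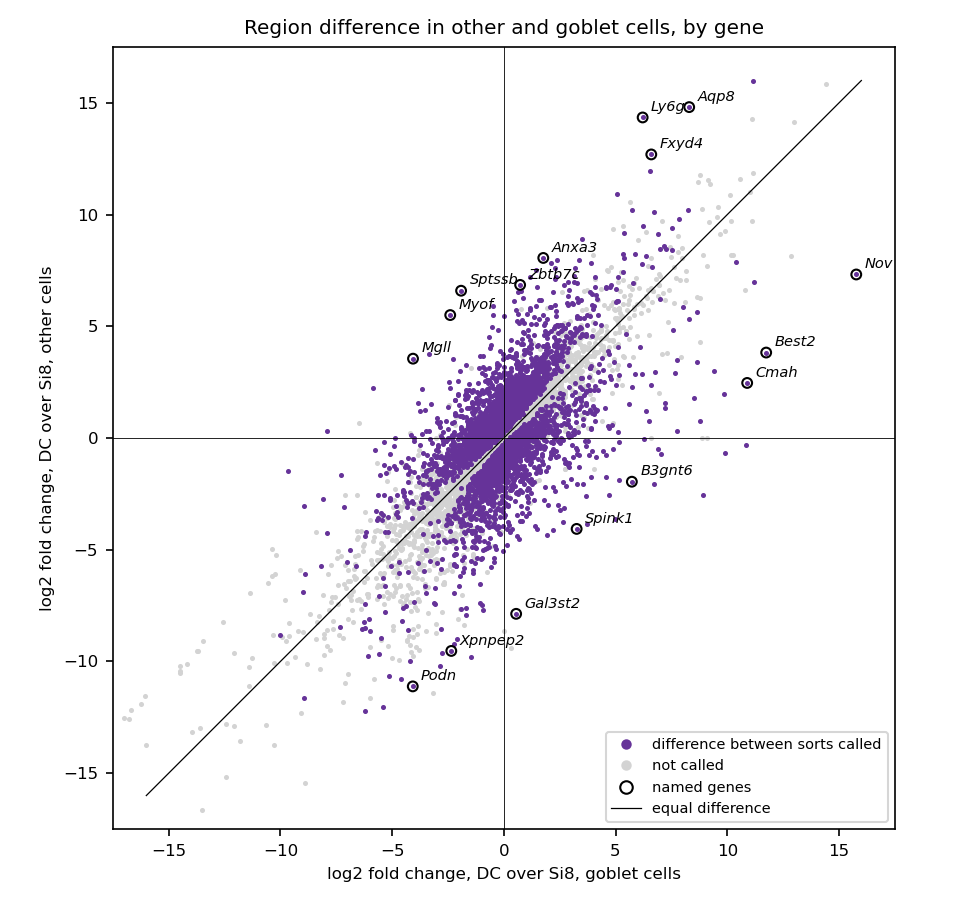
Log2 fold change (DC over Si8) in other cells (vertical) against that in goblet cells (horizontal) for each tested gene, nuclear copies of mitochondrial genes left out; purple genes passed the test of the difference between sorts and circled genes are the 16 named. Most genes lie along the line of equal difference, Sptssb, Myof and Mgll lie in the upper left part, and B3gnt6 and Spink1 in the lower right.

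A set of 19 nuclear genes copied from the mitochondrial genome stood apart and is left out of the named genes above. Of these, 16 were tested and 16 were called higher in DC, and 8 of them were among the 15 genes with the largest rise. Gm20594 had 4966, 3458, 5291 and 4827 CPM in DC other cells, against 0, 0.0787, 0.0987 and 0.0663 CPM in Si8 other cells. Together the copies took 3.64% to 4.90% of counts in DC other cells and under 0.0006% in Si8 other cells, while the mitochondrially encoded genes took 0% in DC and 6.07% to 8.36% in Si8. The tables of the regions therefore treat mitochondrial reads unlike one another, and the copies' values are not read as a regional difference of those genes.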

How the data were processed

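RNA of sorted cells was read from both ends in stranded libraries depleted of ribosomal RNA, per the labels' protocols. The authors deposited read counts per gene, 1 table per region; per the submitters' processing notes the build was mm10 and the tools included STAR 2.4.0f and HTSeq 0.6.1p1, besides DESeq2 1.14 and FastQC 0.11.2, and the strand setting of the counting is not given in the sources used here. 4 entries of repeated symbols were left out, 27 symbols turned into dates are not named, and a deposited table of normalized values was not used. All 16 libraries entered 1 fit in edgeR 4.0.16 (TMM, filterByExpr, robust quasi-likelihood, Benjamini-Hochberg adjustment), with contrasts for DC against Si8 in other cells, in goblet cells, and their difference; each SE is the size of the log2 fold change divided by the root of its F statistic. The method was tested on simulated data. Replicate numbers follow accession order, and the labels do not tie libraries to separate animals, so p-values reflect the spread between these libraries alone, and that spread may be technical. Counting intervals and floors cover counting error only. Gene lists, members and rules were chosen with earlier results of these data known. Named genes are the 15 largest changes each way (10 CPM or more, no overlap, mitochondrial copies left out), up to 6 per list, the 16 largest differences between sorts, and 5 checks; a few exceptions are marked, and some genes are not reported here. Mitochondrial copies are nuclear genes of GENCODE M21 matching a mitochondrial transcript (blastn 2.17.0+, 100 bp, 85% identity, 50% of the transcript), the identity having been lowered after a copy was missed. The Si8 titles give other and goblet libraries adjacent numbers. The deviations of adjacent Si8 libraries from their group means correlated at 0.288 to 0.393 over 15962 genes, above every other pairing (-0.315 to 0.193). A fit with these pairs as a block was therefore added after seeing the data. The DC titles also fall into adjacent pairs of 1 other and 1 goblet library, though not in accession order. The DC pairs were not examined, and no fit paired the DC libraries. Other alternatives were DESeq2's size factors, DESeq2 1.42.0, no filter, 8 libraries only, thinned counts, mitochondrial genes kept or copies left out, and each library left out.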

Additional observations from a re-analysis of the deposited data

Results flagged for a closer look

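Single libraries stood apart from the other 3 of their group in 11 of 78 values examined (a gap to the nearest other library that took most of the group's range, by Dixon's criterion), where chance flags about 1 in 20. Si8 replicate 3 was far above the other Si8 libraries in defensin genes, with 189 CPM for Defa21, 191 CPM for Defa22, 627 CPM for Defa24, 124 CPM for Gm14851 and 327 CPM for Gm15284, and in the summed Paneth markers, at 2263 CPM. These genes are close copies, so they are not separate observations. DC replicate 2 stood above the other DC libraries in summed goblet markers (602 CPM), tuft markers (81.3 CPM) and Paneth markers (1.16 CPM). DC replicate 4 stood above the others in fibroblast and muscle markers (22.5 CPM), and Si8 replicate 4 below the others in colonocyte markers (355 CPM). The cell makeup of these libraries was not tested.

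The regional difference passed the test of a difference between the other cells and the goblet cells in 5149 genes, and the 16 named are listed by the difference of the log2 fold changes, other cells minus goblet cells. It was 8.51 for Sptssb, 8.13 for Ly6g, 7.90 for Myof, 7.62 for Mgll, 6.51 for Aqp8, 6.29 for Anxa3, 6.12 for Zbtb7c and 6.09 for Fxyd4. It was -8.45 for Nov, -8.42 for Cmah, -8.42 for Gal3st2, -7.92 for Best2, -7.68 for B3gnt6, -7.32 for Spink1, -7.18 for Xpnpep2 and -7.04 for Podn. Ly6g and Fxyd4 had no count in Si8 other cells and Podn none in DC other cells, so their fitted differences depend on the prior count and are no measure of size.

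Outside the genes compared, mitochondrially encoded genes took 0% of counts in DC other cells and 6.07% to 8.36% in Si8 other cells. Nuclear copies of the same genes took 3.64% to 4.90% in DC other cells and 0.000448% to 0.000597% in Si8 other cells.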

How the results depend on the processing

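Over 16 alternatives, the genes called between DC and Si8 other cells numbered 9518 (counts thinned to the smallest library) to 11523 (no filter), against 10666, and 10047 to 10580 with 1 library left out; 87.5% to 99.8% of the original calls kept their direction and call. Those of at least 1 on the log2 scale numbered 4366 to 6510 (4833 to 5435 with 1 library left out), and the differences between sorts 4456 to 6346 (4726 to 5557). Of 3349 values of 211 results for named genes, 3306 kept direction and call, 20 lost the call, 23 gained it and 0 reversed. The difference of Fxyd4 between sorts lost its call under 13 alternatives (edgeR adjusted p of 0.0507 to 1), and that of Ly6g when counts were thinned (0.0821). Muc2 was called lower in DC with no filter (log2 fold change -0.44, edgeR adjusted p = 0.00038). Of 992 list counts, 821 were equal to the original. Proliferation genes lower in DC numbered 11 with no filter and 3 to 10 with 1 library left out, and those higher 1 to 2. Hox groups 9 to 13 held 1 lower gene, Hoxb9, with DESeq2's size factors, no filter, mitochondrial genes kept or DESeq2, and 0 to 1 with 1 library left out. Early response genes lower in DC numbered 1 with no filter, in the 8 libraries only and with DESeq2, and 0 to 2 with 1 library left out. Transmembrane mucins lower in DC numbered 1 to 2 with 1 library left out, and surface proteases lower in DC 5 with DESeq2. The cause of these moves was not tested. With the Si8 other and goblet libraries paired as a replicate block, 11309 genes were called between the regions and 6346 differences between sorts. That fit left the DC libraries unpaired. Under that block 1 gene of Hox groups 9 to 13 (Hoxb9) and 1 early response gene were lower in DC, and 2 interferon-stimulated and 2 proliferation genes were higher. No paired analysis of DC against Si8 was possible because the labels give their libraries no shared replicate numbers. Region, depth and table go together, so they cannot be told apart; DC totals are below Si8 totals in every library, which widens the bound on genes silent in DC.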
